A study of Mus musculus with 6 samples.

Results

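The regions described here are stretches of pre-B cell chromatin that carried both H3K4me3 and H3K27ac while lying far from any annotated transcript start. The 25 bp bins of the H3K4me3 list were joined across gaps of up to 100 bp into 17979 regions, and 2967 of them (16.5%) were farther than 5 kb from every annotated start and shared at least 1 bp with an H3K27ac peak. They were therefore selected on the H3K4me3 and H3K27ac lists themselves, so that the presence of both marks and the distance from starts are what defined them and not results. Below they are called distal H3K4me3/H3K27ac regions. Of the 3760 H3K4me3 regions farther than 5 kb from starts, 78.9% overlapped H3K27ac and 793 did not, and of the 14219 regions nearer to starts 79.9% overlapped it.

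H3K27ac, H3K4me3 and Pax5 were each profiled by ChIP-seq in bone marrow pre-B cells of RAG-/- µ+ mice. These are C57BL/6 animals without a RAG recombinase that carry a rearranged IgM heavy chain transgene, taken at 6 to 14 weeks of age and of both sexes. The RAG deficiency and the transgene were shared by all 6 samples of the series, and how many animals entered each library is not given in the sources used here. There was 1 library per list and no other condition, and the reads of the 3 input samples were not used here, so that no value below has a replicate check and no difference was tested.

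H3K4me3 is a histone mark laid down mainly around active promoters, where it is often broad and lies on CpG-rich sequence. H3K27ac is found at active promoters and active enhancers, and enhancers as a rule carry H3K4me1 and little H3K4me3. Pax5 is the transcription factor that commits progenitors to the B cell lineage, and it binds both promoters and enhancers.

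The sequences of 7 regions are shown, from CpG-rich to CpG-free and with a G+C content of 46.5 to 71.5%. They do not span the range of the distal H3K4me3/H3K27ac regions, whose central 200 bp had 25.5 to 84% G+C. These 7 belong to the leading regions of the groups described below, which are the widest regions, those with the highest H3K27ac score, those with the highest Pax5 score and the widest at genes of B cell lists. Each stretch of 200 bases lies around the midpoint of the overlap with Pax5, or with H3K27ac where there was no Pax5 peak, is from the plus strand of NCBIM37 (mm9), and has every CpG in capitals. The Zfp541 stretch is at chr7:16634467-16634666, the St3gal1 stretch at chr15:67008316-67008515, the Trak1 stretch at chr9:121223363-121223562 and the Zfp518a stretch at chr19:40969254-40969453. The Sykb stretch is at chr13:52668233-52668432, the Cdkn1b stretch is at chr6:134877108-134877307, and the Foxp1 stretch is at chr6:99288571-99288770, where the annotation has an intron of Eif4e3. This stretch is upstream of the nearest annotated coding start of Foxp1. It lies between that start and a farther start of Foxp1 that only RefSeq lists, described below.
Zfp541 upstream: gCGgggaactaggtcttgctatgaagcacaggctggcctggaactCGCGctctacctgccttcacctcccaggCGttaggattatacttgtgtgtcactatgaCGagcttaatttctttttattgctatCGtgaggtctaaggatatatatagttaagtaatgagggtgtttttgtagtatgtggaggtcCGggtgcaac
St3gal1 upstream: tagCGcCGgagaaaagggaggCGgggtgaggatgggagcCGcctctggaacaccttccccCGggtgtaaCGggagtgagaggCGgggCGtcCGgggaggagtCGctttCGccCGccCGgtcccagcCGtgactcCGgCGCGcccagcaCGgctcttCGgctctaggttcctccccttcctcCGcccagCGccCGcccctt
Trak1 intron: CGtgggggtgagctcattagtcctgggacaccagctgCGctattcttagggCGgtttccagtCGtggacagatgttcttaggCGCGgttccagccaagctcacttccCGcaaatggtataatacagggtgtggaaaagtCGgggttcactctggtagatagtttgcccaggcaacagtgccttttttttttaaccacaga
Zfp518a upstream: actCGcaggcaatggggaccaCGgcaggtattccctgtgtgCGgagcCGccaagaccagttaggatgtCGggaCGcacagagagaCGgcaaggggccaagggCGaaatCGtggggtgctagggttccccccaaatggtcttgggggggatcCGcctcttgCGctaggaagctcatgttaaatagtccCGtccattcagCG
Sykb upstream: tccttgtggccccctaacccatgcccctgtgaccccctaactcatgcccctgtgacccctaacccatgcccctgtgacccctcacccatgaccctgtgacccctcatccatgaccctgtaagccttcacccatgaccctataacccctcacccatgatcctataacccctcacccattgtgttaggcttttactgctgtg
Cdkn1b downstream: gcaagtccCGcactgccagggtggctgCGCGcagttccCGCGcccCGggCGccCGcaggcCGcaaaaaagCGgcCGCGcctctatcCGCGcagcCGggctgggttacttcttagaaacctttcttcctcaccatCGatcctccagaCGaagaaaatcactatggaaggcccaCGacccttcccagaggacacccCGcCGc
Foxp1 upstream: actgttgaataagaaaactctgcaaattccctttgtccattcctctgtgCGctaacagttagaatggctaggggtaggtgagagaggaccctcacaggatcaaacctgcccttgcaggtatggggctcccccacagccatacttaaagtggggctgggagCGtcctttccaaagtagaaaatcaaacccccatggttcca

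The stretches upstream of St3gal1 and downstream of Cdkn1b held 22 and 20 CpG dinucleotides and had a G+C content of 71.5% and 65.0%, a composition otherwise typical of CpG island promoters. The Zfp518a stretch held 13, the Trak1 stretch 8 and the Zfp541 stretch 7. The Sykb stretch, which lay under the highest Pax5 score of all distal H3K4me3/H3K27ac regions, held 0 and runs through repeated copies of a short unit. It is from a region of 125 bp, and a stretch from the region of 375 bp under the same Pax5 peak, not printed, held 3. The Foxp1 stretch, without a Pax5 peak, held 2. High H3K27ac or Pax5 scores were thus found on stretches of very different CpG content.

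Most distal H3K4me3/H3K27ac regions were narrow. Their median width was 425 bp, with quartiles of 200 and 775 bp and a range of 25 to 5125 bp, whereas H3K4me3 regions near starts with H3K27ac had a median of 1375 bp and distal H3K4me3 regions without H3K27ac one of 250 bp. The width depended on the joining of bins, and where only touching bins were joined the median was 250 bp. A single bin made up 188 of the regions (6.34%), and 76 (2.56%) were at least 2000 bp wide. H3K27ac covered 1891 regions (63.7%) from end to end, and 593 were wider than their H3K27ac peak. The choice of regions that overlap a peak favours wide ones, which bears on the difference from distal regions without H3K27ac.

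**Figure D1:**
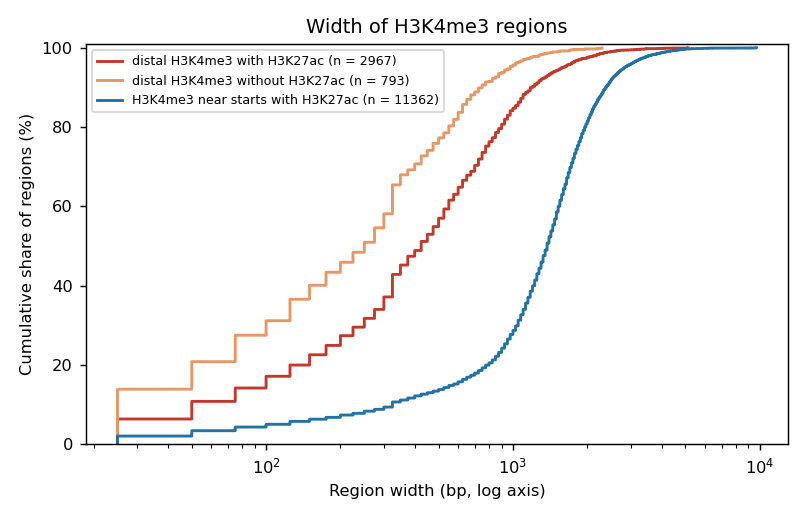
Cumulative share of H3K4me3 regions (%, y axis) against region width (bp, log x axis) for 3 sets of regions, 1 library. Distal H3K4me3/H3K27ac regions (red, median 425 bp) lie between distal regions without H3K27ac (orange, median 250 bp) and regions near starts with H3K27ac (blue, median 1375 bp).

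The widest distal H3K4me3/H3K27ac regions had widths otherwise seen at promoters, and 4 of the 10 lay within 1000 bp of a transcript start that RefSeq lists and the older GENCODE M1 annotation does not. The widest region of all, of 5125 bp, was 21287 bp from the start of Zfp541, a zinc finger gene, at the RefSeq start of Gm32059, and had an H3K27ac score of 83.3 and a Pax5 score of 479. The region of 4125 bp downstream of Cdkn1b, which encodes the cell cycle inhibitor p27, lay at the start of the long noncoding RNA Lockd and had an H3K27ac score of 94.8 and a Pax5 score of 499.6. The region of 3375 bp upstream of Chd2, a chromatin remodeller, lay at the start of the noncoding RNA Chaserr and had an H3K27ac score of 87.6 and a Pax5 score of 390. The region of 3875 bp in the Eif4e3 annotation lay at a RefSeq start of Foxp1, a forkhead factor needed for early B cell development, and had an H3K27ac score of 152 and a Pax5 score of 185.

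The other 6 of the 10 widest regions had no RefSeq start within 1000 bp. The region 59308 bp upstream of St3gal1, a sialyltransferase gene, was 4425 bp wide and overlapped 4 Pax5 peaks, the highest with a score of 408. In Smarca4, the gene of the Brg1 remodelling ATPase, an intronic region of 3450 bp lay 6836 bp from the nearest start, and its CpG observed/expected ratio of 0.121 was far lower than that of the region at Chaserr, 0.872. The remaining 4 lay nearest to the coding starts of Hfe2 (4050 bp wide), Olfr1423 (3500 bp), Trim27 (3450 bp) and Rpl21-ps7 (3275 bp). Of the 10 widest regions only that near Trim27 had no Pax5 peak. It also had the lowest H3K27ac score of the 10, 19.8.

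Across all distal H3K4me3/H3K27ac regions, 282 (9.50%) had a RefSeq start within 1000 bp and 166 (5.59%) had one inside. A start within 1000 bp was found for 9.84% of the distal H3K4me3 regions without H3K27ac, a share near that of the regions with it, and for 2.92% of the distal H3K27ac peaks without H3K4me3. The starts within 1000 bp of the distal H3K4me3/H3K27ac regions belonged to 279 genes, of which 201 were long noncoding RNAs and 78 were protein-coding. Of the 470 regions of at least 1000 bp, 24.0% had such a start, compared with 5.59% of those under 250 bp. RefSeq starts were placed by matching letters of the GRCm38 promoter sequences to NCBIM37, so that a start whose sequence differs was missed. The 282 regions had a median width of 825 bp and 51.4% of them overlapped Pax5, and the 2685 others had a median width of 400 bp and a Pax5 share of 37.7%.

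Sequence composition placed distal H3K4me3/H3K27ac regions between promoters and other distal H3K27ac peaks. In the central 200 bp their median CpG observed/expected ratio was 0.373, compared with 0.747 in H3K4me3 regions near starts with H3K27ac and 0.167 in the 33979 distal H3K27ac peaks without H3K4me3. Distal H3K4me3 regions without H3K27ac had a median of 0.543. A CpG-rich centre, with over 50% G+C and a ratio over 0.6, was found in 397 of the distal H3K4me3/H3K27ac regions (13.4%), in 62.2% of those near starts, in 31.0% of the distal regions without H3K27ac and in 0.586% of the H3K27ac peaks. Of the 282 regions with a RefSeq start within 1000 bp, 89 (31.6%) had such a centre, and of the 2685 others 308 (11.5%). CpG-rich centres were thus more frequent at those starts, although most of them were not at a start listed there.

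**Figure D2:**
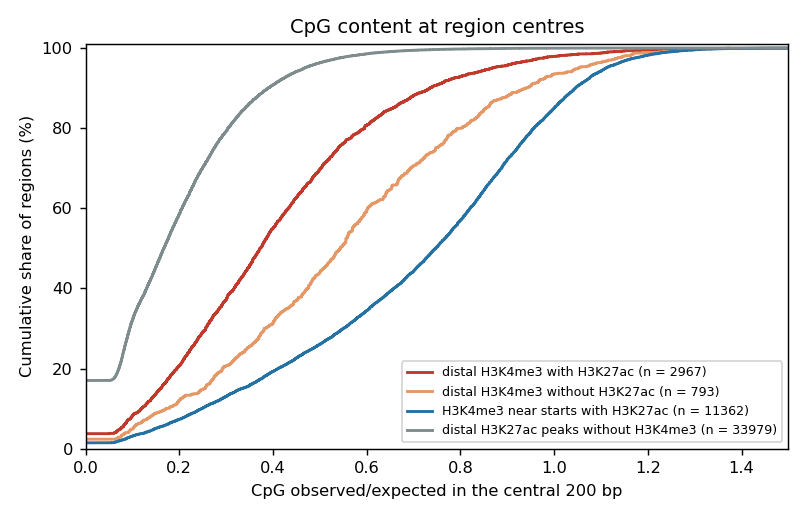
Cumulative share of regions (%, y axis) against the CpG observed/expected ratio of the central 200 bp (x axis) for 4 sets. The curve of distal H3K4me3/H3K27ac regions (red, median 0.373) lies between distal H3K27ac peaks without H3K4me3 (grey, median 0.167) and H3K4me3 regions near starts (blue, median 0.747).

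Short motifs were searched on both strands of the central 200 bp, and a match is a description of letters and not a binding site. The PU.1 motif GAGGAAGT was found in 3.13% of distal H3K4me3/H3K27ac regions and in 1.85% of all H3K4me3 regions, and the Runx motif TGTGGTT in 5.46% and 2.99%. The E-boxes CAGCTG and CAGGTG were found in 15.5% and 14.5% of the distal regions and in 12.1% and 15.2% of all. TATAAA occurred in 7.38% and 3.85%. The distal H3K27ac peaks without H3K4me3 were closer to the regions for the Runx motif (5.17%), CAGCTG (13.7%) and TATAAA (8.97%). For CAGGTG, with 16.0%, they were farther from the regions than all H3K4me3 regions were. The PU.1 motif was found in 1.95% of them, nearly as in all H3K4me3 regions. Of the distal H3K4me3 regions without H3K27ac, 5.04% held the Runx motif, 1.64% the PU.1 motif and 5.93% TATAAA. The Ets motif CCGGAAGT was found in 1.25% of the distal regions and 2.30% of all, and the Ebf1 motif TCCCNNGGG in 4.62% and 6.01%. The Pax5 core GCGTGAC was found in 1.11% and 1.46%, and among the distal regions in 1.99% of those with a Pax5 peak and 0.552% of those without. The Ets and Ebf1 motifs and the Pax5 core were found in 0.262, 3.62 and 0.477% of the distal H3K27ac peaks without H3K4me3. In the distal H3K4me3 regions without H3K27ac the shares were 0.378, 6.05 and 1.26%. Of the 7 stretches printed above, that of St3gal1 matched the Ebf1 motif and that of Trak1 matched CAGCTG and the Runx motif.

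A Pax5 peak overlapped 1157 of the 2967 distal H3K4me3/H3K27ac regions (39.0%, exact 95% interval 37.2 to 40.8%), whereas 52.9% of all H3K4me3 regions overlapped one. The share was 21.2% with the higher-scoring 50% of Pax5 peaks only and 22.1% where the midpoint of the Pax5 peak had to lie inside the region. With any overlap counted, the share was 66.8% in regions near starts with H3K27ac, 14.8% in distal H3K4me3 regions without H3K27ac and 9.37% in distal H3K27ac peaks without H3K4me3. Of the 5467 Pax5 peaks farther than 5 kb from starts, 1046 (19.1%) lay on a distal H3K4me3/H3K27ac region and 3626 (66.3%) on a distal H3K27ac peak of any kind. The Pax5 peaks on the regions had a median score of 215, compared with 161 for the other distal Pax5 peaks. The midpoint of the Pax5 peak was a median of 216 bp from the midpoint of the region.

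The Pax5 share was higher in wider regions, although a wide region also has more room to overlap a peak. Among distal H3K4me3/H3K27ac regions it was 32.6% under 250 bp, 34.8% from there to 500 bp, 37.7% from 500 to 1000 bp and 60.0% from 1000 bp. Near starts the same widths gave 27.2, 32.2, 45.8 and 77.9%. Narrow distal regions thus overlapped Pax5 at least as often as narrow regions near starts. Among regions of 500 bp and more the distal share was the lower. The sets also differed in width, as 15.8% of the distal and 72.3% of the near-start regions had 1000 bp or more. How far this difference in width enters the shares over all widths, 39.0 and 66.8%, was not tested.

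The Pax5 share was also higher where the H3K27ac score was high. Distal H3K27ac peaks were compared as whole peaks, 2839 with H3K4me3 and 33979 without, in classes limited by the quartiles of the score on distal H3K4me3/H3K27ac regions (13.2, 25.0 and 43.4). From the lowest to the highest class, 25.9, 34.4, 43.1 and 75.8% of the peaks with H3K4me3 overlapped Pax5, and 5.43, 23.8, 48.3 and 75.1% of those without. The lowest class held 85.6% of the peaks without H3K4me3, and there the shares were farthest apart. In the highest class the share with H3K4me3 lay inside the exact 95% interval of the share without, 70.5 to 79.3%, although those peaks were wider without H3K4me3 than with it, with medians of 2899 and 2167 bp. The median CpG ratio at the centre of these highest-class peaks was 0.336 with H3K4me3 and 0.173 without, so that composition differed where the Pax5 share did not separate them.

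**Figure D3:**
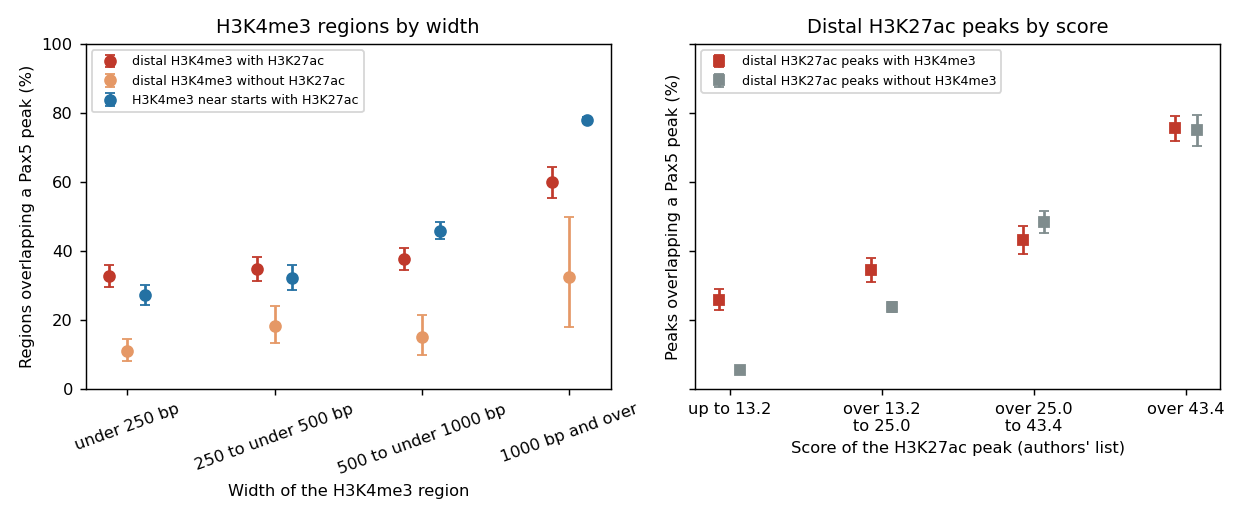
Share overlapping a Pax5 peak (%, y axes) for H3K4me3 regions by width (left) and for distal H3K27ac peaks by their score (right), with exact 95% binomial intervals that cover counting over regions only. On the right, peaks with H3K4me3 (red) and without (grey) are far apart in the lowest class, 25.9 and 5.43%, and close in the highest, 75.8 and 75.1%.

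Distal H3K4me3/H3K27ac regions with a Pax5 peak had a median H3K27ac score of 38.6 and those without one of 19.8. Over the 1157 regions with Pax5, Pearson's r between the Pax5 and H3K27ac scores was 0.224 and Spearman's rho was 0.185. Over all 2967 regions, r between width and H3K27ac score was 0.215 and rho was 0.160. These are relations across regions of the same libraries, and 238 H3K27ac peaks lay on 2 or more regions, which then share a score. Of the 1810 regions without Pax5, 633 (35.0%) had the midpoint of a Pax5 peak within 10 kb.

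The highest Pax5 score on any distal H3K4me3/H3K27ac region, 3100, was upstream of Sykb, the annotation's name for the gene of the Syk kinase that signals from the pre-B cell receptor. A single Pax5 peak there overlapped 3 regions of 375, 125 and 75 bp, which also shared an H3K27ac score of 79.0. The next score, 2181, was likewise shared by a pair of regions of 475 and 1225 bp downstream of Adra2c, an adrenergic receptor gene, with an H3K27ac score of 123. All 5 of these regions lay within 1000 bp of a RefSeq start, those near Sykb at Gm2848 and those near Adra2c at Gm31656. The highest Pax5 scores therefore come from 2 peaks.

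The highest H3K27ac score, 184, belonged to a region of 1275 bp in an intron of Trak1, a gene of mitochondrial transport, with a Pax5 score of 311. It was followed by the region of 1475 bp upstream of Zfp518a, with an H3K27ac score of 170 and a RefSeq start of the same gene. Upstream of Ly6e, a gene of the Ly6 family of surface proteins, 5 regions of 50 to 2200 bp lay on 1 H3K27ac peak with a score of 168. The region of 425 bp near Plekho1 had a score of 165, and the region of 1500 bp near Nanos3 had 157. Of the 10 regions with the highest scores, which lay on 6 different peaks, 8 overlapped Pax5.

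Relative to genes, 1746 of the distal H3K4me3/H3K27ac regions had an intergenic midpoint (58.8%), 1112 an intronic one (37.5%) and 109 an exonic one (3.67%). Of the 2137 Mb of sequence farther than 5 kb from starts, 63.3% was intergenic, 34.9% intronic and 1.83% exonic. Distal H3K27ac peaks without H3K4me3 were intronic in 54.2%, more often than the regions with both marks. Intergenic regions had a median width of 500 bp and a Pax5 share of 41.6%, and intronic regions one of 325 bp and 34.3%. The median distance to the nearest start was 18119 bp and to the nearest protein-coding start 25271 bp.

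**Figure D4:**
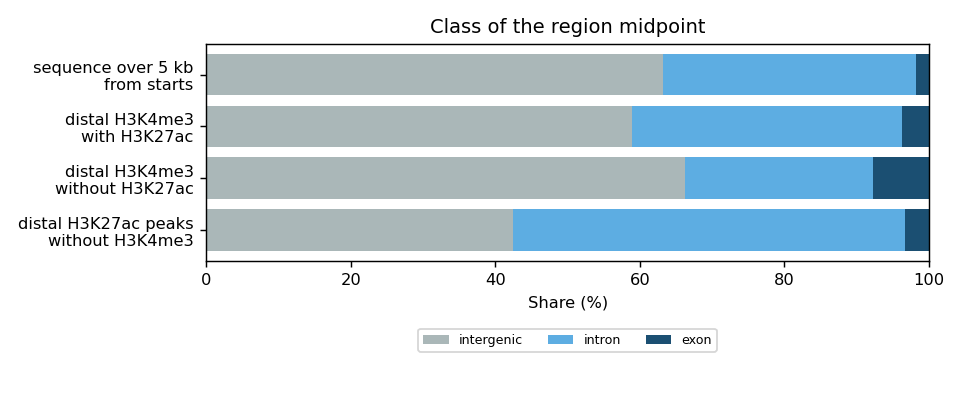
Share (%, x axis) of region midpoints that were intergenic (grey), intronic (light blue) or exonic (dark blue), with the share of sequence over 5 kb from starts in the top bar. Distal H3K4me3/H3K27ac regions were intronic in 37.5%, distal H3K27ac peaks without H3K4me3 in 54.2%.

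The Pax5 share was lower farther from starts, from 44.5% at 5 to 10 kb to 39.0% at 10 to 20 kb, 36.1% at 20 to 50 kb, 35.7% at 50 to 100 kb and 34.9% beyond 100 kb. Distal H3K4me3 regions without H3K27ac had 16.5, 13.6, 17.3, 10.1 and 7.50% over the same distances, the last from 40 regions. Their share was thus also lower beyond 50 kb. Distal H3K27ac peaks without H3K4me3 had 9.20% at 5 to 10 kb and 10.6% beyond 100 kb. The chosen regions nearest to the limit of 5 kb were those at Vrk2 (5009 bp from the start), Gatad2a (5021 bp) and Adrbk1 (5023 bp), with H3K27ac scores of 15.8, 30.5 and 122. The nearest H3K4me3 regions left out, as too close to a start, were those at Cd79b (4998 bp), Tufm (4990 bp) and Ebf1 (4974 bp), with scores of 35.0, 9.93 and 9.74.

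A protein-coding gene was counted as having a distal H3K4me3/H3K27ac region when a region lay inside it or had its start as the nearest coding start. This held for 2133 of 22367 genes (9.54%), and for 931 of the 4841 genes of over 50 kb (19.2%), since long genes have more room. Of the genes with a region, 1456 had 1. The lists below were chosen with earlier results of these data known, and no set test was made.

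Of 45 annotated transcription factors of the B lineage, 30 (66.7%) had at least 1 distal H3K4me3/H3K27ac region, and of the 26 with over 50 kb 21 (80.8%) did. Ebf1, which with Pax5 establishes B cell identity, had 5 regions of which 4 overlapped Pax5, the widest of 1800 bp and 41299 bp upstream of its nearest coding start, with an H3K27ac score of 49.7 and a Pax5 score of 483. Mef2c, a MADS-box factor of B cell progenitors, had 8 regions, 6 with Pax5. Bach2, a repressor that acts at the pre-B cell checkpoint, had 3, all with Pax5, as did the Ets family gene Ets1. The Bach2 regions of 325 and 800 bp shared a Pax5 score of 225. Foxo1, an activator of Rag and Il7r transcription, had 2 regions and neither overlapped Pax5, and its widest, of 1775 bp, had an H3K27ac score of 20.5. Tcf12, which encodes the E protein HEB, had 3 regions and none with Pax5.

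Foxp1 had 9 distal H3K4me3/H3K27ac regions, of which 1 overlapped Pax5. The region of 3875 bp at its RefSeq start, described above and with a Pax5 peak, is not among them, because GENCODE M1 assigns it to Eif4e3. A group of 6 of them lay within 6.10 kb in what GENCODE M1 annotates as an intron of Eif4e3, a gene model of 409 kb, and none of the 6 overlapped Pax5. This group lay between the nearest GENCODE M1 coding start of Foxp1 and that RefSeq start. The widest, of 2350 bp, had an H3K27ac score of 84.8. Lef1, a Wnt pathway factor of pro-B and pre-B cells, had 1 region of 1050 bp with a high H3K27ac score of 99.1 and a low Pax5 score of 117. Klf3, a Krüppel-like factor gene, had 3 regions and 1 of them overlapped Pax5.

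Of 42 genes of the pre-B cell receptor, its signalling and the B cell surface, 17 (40.5%) had a region, and of the 15 with over 50 kb 11 did. Il7r, the receptor for the cytokine that drives pre-B cell growth, had 2 regions, neither with Pax5, the wider of 1650 bp and 43227 bp from the start with an H3K27ac score of 29.6. Pik3ap1, the adaptor BCAP, had an intronic region of 1050 bp with a score of 25.0 and no Pax5 peak. Cxcr4, the receptor that retains cells in the bone marrow, had 5 regions without Pax5, and Ptprc, which encodes CD45, had 2, both with Pax5.

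Of 32 cell cycle and survival genes, 15 (46.9%) had a region, and of the 9 with over 50 kb 6 (66.7%) did. Btg2, an antiproliferative gene, had 5 regions, all with Pax5. A group of 4 of them, spanning 4.05 kb, lay downstream of the gene, 15002 to 18227 bp from its start. These 4 shared an H3K27ac score of 108. Those of 825 and 325 bp also shared a Pax5 score of 785, and those of 200 and 575 bp shared one of 1451. The fifth, of 1300 bp and upstream, had an H3K27ac score of 86.4 and a Pax5 score of 786. Ccnd1, which encodes cyclin D1, had a region of 1225 bp at 170731 bp from its start, with scores of 28.2 and 237. Jak1, a kinase of the Il7 receptor, had 1 region of 1900 bp with scores of 63.9 and 426. Pim1, a kinase gene downstream of STAT signals, had 2 regions. The wider, of 1150 bp, had scores of 47.5 and 225 and lay at the RefSeq start of Gm36486, and the other, of 525 bp, had no Pax5 peak.

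Of 32 chromatin regulators 13 (40.6%) had a distal H3K4me3/H3K27ac region, Chd2 having 7 and Smarca4 1. T cell genes had one in 5 of 29 (17.2%), among them Tox and Notch1, and myeloid and erythroid genes in 5 of 35 (14.3%), among them Itgam with 3 regions, none of which overlapped Pax5. Ribosomal protein genes had one in 3 of 34 (8.82%), and genes of non-blood tissues in 1 of 30 (3.33%), the neurofilament gene Nefl. The lists differ in gene length, with a median of 87.9 kb for the B lineage factors and 3.80 kb for the ribosomal protein genes. Length alone does not account for the intergenic space around a gene, where 58.8% of the regions had their midpoint. With this limit, the genes of over 50 kb were also compared. Of those, 10 of 21 chromatin regulators (47.6%), 4 of 8 T cell genes, 1 of 2 myeloid and erythroid genes and 0 of 4 genes of non-blood tissues had a region, and no ribosomal protein gene is that long.

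**Figure D5:**
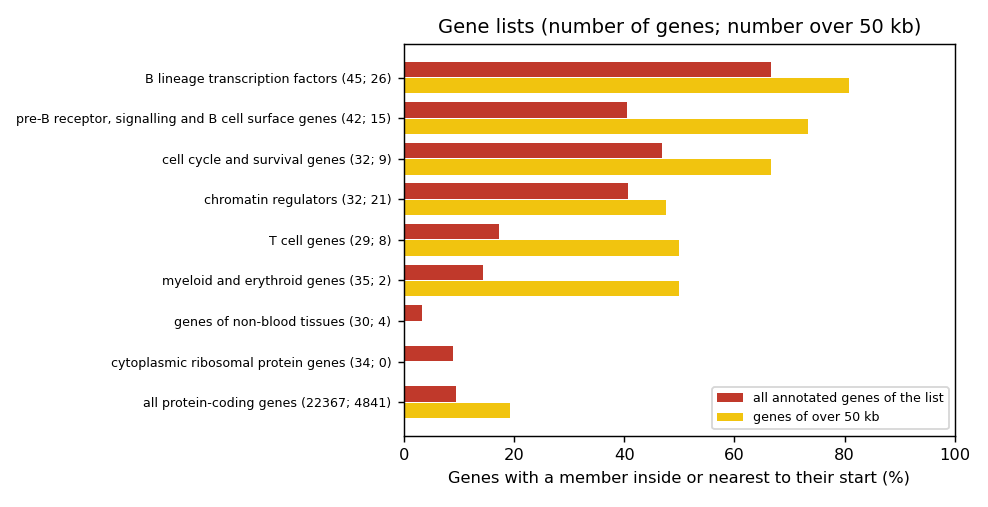
Share of the genes of each list that had a distal H3K4me3/H3K27ac region inside or nearest to their start (%, x axis), for all annotated genes (red) and for genes of over 50 kb (yellow), with both numbers of genes beside each name. B lineage transcription factors had 66.7 and 80.8%, all protein-coding genes 9.54 and 19.2%.

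The label of the cells was checked at the starts of marker genes. The share of all genes with such peaks is not given here, so the counts have no background beside them. Within 1000 bp of the start, all 10 B cell markers had H3K27ac and Pax5 and 9 had H3K4me3, all but Igll1. Of 8 T cell markers 1 had H3K27ac, 2 had H3K4me3 and 1 (Gata3) had Pax5. Of 7 myeloid markers 6 had H3K27ac and 3 had H3K4me3 (Itgam, Csf1r and Lyz2), of 4 erythroid markers 3 had both marks, and none of these 11 had Pax5. The part of other cells in the distal H3K4me3/H3K27ac regions was not tested.

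Distal H3K4me3/H3K27ac regions occurred singly in most places. With regions within 10 kb of each other taken as a group, 2029 (68.4%) were alone and 27 groups held 4 or more. The largest, upstream of Ly6e, held 8 regions over 16.7 kb, 6 with Pax5. A group of 6 near Nanos3, over 16.8 kb, had 3 with Pax5, and one of 6 near 6720401G13Rik on the X chromosome, over 17.6 kb, had 0. All 5 of a group near the semaphorin gene Sema4b overlapped Pax5. Genes with many regions, named after their values were seen, were Gm20388 with 16 in a model of 4435 kb, Foxn3 with 11 and the Notch coactivator gene Maml3 with 9, of which 9, 2 and 3 overlapped Pax5.

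By chromosome, the regions made up 23.9% of the H3K4me3 regions of chromosome 10, 23.8% of those of chromosome 18 and 11.5% of those of chromosome 11. The X chromosome had 44 regions, 8.19% of its 537 H3K4me3 regions and 0.264 per Mb, compared with 1.82 per Mb on chromosome 10. The animals were of both sexes, and how many cells of each entered the libraries is not given in the sources used here.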

How the data were processed

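The analysis used peak lists of pre-B cell ChIP-seq for H3K27ac, H3K4me3 and Pax5, 1 library each. Per the study's methods, reads were freed of duplicates and adapters and mapped to mm9, keeping reads with up to 3 best positions, and the submitters' processing notes name Bowtie 0.12.9 and MACS 1.4.2. The score that the authors deposited for each H3K27ac and Pax5 peak is a number of the peak caller on a scale the lists do not name (3.06 to 330 over 69345 H3K27ac peaks and 87.9 to 3214 over 15445 Pax5 peaks). It was compared within a list only. The deposited H3K4me3 list holds 782636 bins of 25 bp with other content than a score, and how they were called is not given in the sources used here. The lists hold no read counts, so depth is unknown.

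Positions refer to NCBIM37 (mm9) with GENCODE M1. Distance runs from the nearest edge of a region to the nearest transcript start of any gene type, and intron, exon or intergenic is the class of the midpoint. An overlap of at least 1 bp counted. The score of a region is that of its highest overlapping peak. RefSeq starts came from GRCm38 promoter sequences of 300 bases matched by letters (at least 290) to NCBIM37. Exact Clopper-Pearson 95% intervals cover counting error over regions only. With 1 library a list, no test was made. The members and lists were chosen with earlier results of these data known.

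Named regions were the 10 widest, the 10 with the highest H3K27ac score, the 5 with the highest Pax5 score, the widest region of each of the 15 genes of the B cell and cell cycle lists with the widest such region, and 3 on either side of the distance limit. Other genes of the lists were named after their values were seen. Some named items are not reported here. Alternatives changed the joining gap, the distance, the overlap, the minimum width and the score threshold. The interval functions were tested on simulated data. Python 3.11.15, numpy 2.4.6, scipy 1.17.1, pysam 0.24.0 and matplotlib 3.10.9 were used.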

Additional observations from a re-analysis of the deposited data

How the results depend on the processing

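Over the alternatives the number of distal H3K4me3/H3K27ac regions ran from 2185 to 3872, around 2967. The Pax5 share, 39.0%, became 37.0% farther than 10 kb from starts, 41.0% with the higher-scoring 50% of H3K27ac peaks, 41.1% over regions of at least 200 bp, 44.6% with a Pax5 peak within 1 kb counted, and 21.2% and 22.1% with the higher-scoring 50% of Pax5 peaks and with the Pax5 midpoint required inside. Both of the latter admit fewer overlaps by construction. The intron share, 37.5%, became 40.2% with a limit of 2 kb, 34.9% with 10 kb, 34.2% over regions of at least 200 bp, 34.3% where any exon base made a region exonic, and 39.7% without regions at RefSeq starts, which was tried only after seeing the data. The median width, 425 bp, became 250 bp where only touching bins were joined, 525 bp with gaps up to 500 bp and 575 bp over regions of at least 200 bp. No paired analysis was possible because there is 1 library per list, and no replicate could be left out. Depth is unknown for all lists, so a missing overlap may be a peak not detectable at that depth. GENCODE M1 lacks starts that RefSeq lists and holds long gene models, which affects distances and host genes.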
